A study of Mus musculus with 12 samples.

Results

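Cnmd, Fmod, Comp, Hapln1, Prg4 and Sox9 are 6 mouse genes best known from cartilage, joints, tendon and heart valves, and their transcripts were measured here in hearts of Cd163 knockout and wild-type mice after pressure overload. The genes were taken by symbol from a table of raw counts over 55357 gene IDs. Cnmd and Fmod had been picked because their levels differed between the genotypes, so every genotype difference of these 2 genes, and every surgery effect within a single genotype, is given as a description with no test. The other 4 were tested throughout. All 6 passed the filter on low counts and were among the 15804 genes tested.

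The study compared CD163-/- hearts after transverse aortic constriction (TAC), CD163-/- hearts after sham surgery, WT hearts after TAC and WT hearts after sham surgery, with 3 libraries in each group. All mice were males on a C57BL/6J background and were operated on at 8 weeks of age. TAC narrows the aortic arch with a ligature, tied here over a 27-gauge needle, and loads the left ventricle with pressure, while sham animals had the same operation with no ligature. CD163 is the haemoglobin scavenger receptor of macrophages, and both CD163-/- groups carry the knockout, of which the labels do not say how it was made. The labels name the tissue as heart and give no chamber, no time after surgery and no statement on pooling, so p-values measure only the spread between these libraries.

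A heart valve is a sheet of connective tissue that stays free of vessels and resists load with the same kinds of molecules as cartilage: fibrillar collagens, hyaluronan with its bound proteoglycans, and small leucine-rich proteoglycans. SOX9 is the transcription factor that starts and maintains the cartilage programme and is needed for valve precursor cells in the mouse embryo. Chondromodulin, the product of Cnmd, is a membrane protein whose released part inhibits angiogenesis and is known from cartilage and from the avascular parts of cardiac valves. Fibromodulin (Fmod) and cartilage oligomeric matrix protein (Comp, a thrombospondin) bind collagen fibrils, HAPLN1 is the link protein that fixes aggrecan or versican to hyaluronan, and lubricin (Prg4) lubricates joint surfaces.

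In GRCm38, by the GENCODE vM21 annotation, Cnmd (ENSMUSG00000022025) lies on the minus strand at chr14:79637690-79662170, Fmod (ENSMUSG00000041559) on the plus strand at chr1:134037254-134048277 and Comp (ENSMUSG00000031849) on the plus strand at chr8:70373558-70382066. Hapln1 (ENSMUSG00000021613) lies on the plus strand at chr13:89539796-89611652, Prg4 (ENSMUSG00000006014) on the minus strand at chr1:150449412-150466165 and Sox9 (ENSMUSG00000000567) on the plus strand at chr11:112782224-112787760. The counts cover exons of these genes. Prg4 shares 204 exonic bases with Tpr, which runs on the opposite strand, and strand use in the counting, not given in the sources used here, decides to which gene reads in that stretch were assigned. None of the other 5 genes overlapped the exons of another annotated gene.

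The promoters of Cnmd, Fmod and Hapln1, the 3 genes with the largest log2 differences between the genotypes within 1 surgery, are shown. They are also the 3 of the 6 genes matched in RefSeq's promoter table (GRCm38.p6). Each sequence runs 5′ to 3′ on the gene's own strand, from 250 bases before the annotated start to 50 after it, at chr14:79662134-79662433 (minus) for Cnmd, chr1:134037004-134037303 (plus) for Fmod and chr13:89540386-89540685 (plus) for Hapln1. The Hapln1 window lies wholly inside the GENCODE gene, which starts at 89539796, so the start used for it differs from the GENCODE start. Capitals mark the motifs found.
Cnmd: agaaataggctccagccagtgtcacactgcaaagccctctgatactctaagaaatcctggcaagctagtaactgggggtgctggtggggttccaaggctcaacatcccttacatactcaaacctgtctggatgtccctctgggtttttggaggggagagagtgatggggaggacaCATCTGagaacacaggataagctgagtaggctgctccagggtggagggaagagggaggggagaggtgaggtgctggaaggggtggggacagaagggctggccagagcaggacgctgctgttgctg
Fmod: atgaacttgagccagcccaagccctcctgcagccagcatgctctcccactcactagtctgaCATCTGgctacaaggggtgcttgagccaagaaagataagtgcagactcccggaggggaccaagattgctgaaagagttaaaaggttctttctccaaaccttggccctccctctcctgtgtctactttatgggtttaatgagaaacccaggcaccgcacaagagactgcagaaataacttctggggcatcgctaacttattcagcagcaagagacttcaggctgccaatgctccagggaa
Hapln1: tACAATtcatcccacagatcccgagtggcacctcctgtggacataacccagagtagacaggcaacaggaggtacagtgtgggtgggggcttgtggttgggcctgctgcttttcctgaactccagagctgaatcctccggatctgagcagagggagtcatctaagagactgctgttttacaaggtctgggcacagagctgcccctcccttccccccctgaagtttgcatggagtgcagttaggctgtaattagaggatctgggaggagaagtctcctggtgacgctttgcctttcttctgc
3 motifs were searched on both strands: ACAAT, the core of many SOX sites, ACAAAG, another SOX site, and CAGATG, an E-box of basic helix-loop-helix factors. ACAAT was present in the Hapln1 window at position -249, CAGATG on the reverse strand of the Fmod window at -189 (read as CATCTG) and on the reverse strand of the Cnmd window at -75, and ACAAAG in none of the 3. Over 32851 promoters of the same length, 31% held ACAAT, 18.7% ACAAAG and 17.2% CAGATG, so each of these short motifs is common.

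Library totals ran from 14150109 to 22602225 counts. Levels are given in CPM, the counts scaled to library size. Cd163 itself averaged 3.74 ± 0.302 CPM in CD163-/- TAC hearts, 4.08 ± 0.816 in CD163-/- sham hearts, 24.1 ± 8.99 in WT TAC hearts and 15.2 ± 1.08 in WT sham hearts (SD, n = 3 each). All 6 CD163-/- libraries, at 46 to 112 counts, were below all 6 WT libraries, at 255 to 592 counts. CD163-/- sham replicate 1 stood with the CD163-/- TAC hearts on principal component 1 of the 1000 most variable genes (44.6, against 40.4 to 44.9 in CD163-/- TAC), and WT TAC replicate 1 lay between the clusters at 6.69, while the other 7 libraries were at -32.9 to -17.9. Mitochondrial genes took 44.0 to 51.3% of counts in the CD163-/- TAC hearts and CD163-/- sham replicate 1, and 24.8 to 36.9% in the other 8. Over the 12 libraries Pearson's r between log2 CPM and this share was 0.81 for Fmod, 0.85 for Comp, 0.84 for Hapln1, 0.78 for Sox9, 0.42 for Prg4 and -0.14 for Cnmd, a description over libraries that fall into clusters. The part of this share in the results was not tested. Results are therefore given with all 12 libraries and without CD163-/- sham replicate 1 and WT TAC replicate 1. These 2 were singled out by their expression, and adjusted p-values without them do not account for that choice.

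Levels can be compared between genes only per kilobase of exon. On that scale, as means over the 12 libraries, Prg4 led at 5.07 CPM per kb, followed by Comp at 3.10, Fmod at 2.42, Sox9 at 1.48, Cnmd at 0.365 and Hapln1 at 0.206. In CD163-/- TAC hearts the means were 6.26 ± 1.07 for Prg4, 5.67 ± 1.19 for Comp, 5.15 ± 0.910 for Fmod, 2.63 ± 0.422 for Sox9, 0.646 ± 0.307 for Hapln1 and 0.279 ± 0.0359 for Cnmd (CPM per kb, SD, n = 3). The first 3 of these did not differ beyond their spread. In WT sham hearts the order was Prg4 at 3.27 ± 0.263, Comp at 1.43 ± 0.663, Fmod at 1.37 ± 0.828, Cnmd at 0.782 ± 0.187, Sox9 at 0.644 ± 0.183 and Hapln1 at 0.0768 ± 0.0464 (CPM per kb, SD, n = 3). Cnmd was thus the lowest of the 6 in CD163-/- TAC hearts and stood above Sox9 and Hapln1 in WT sham hearts. In WT sham hearts Comp and Fmod, and likewise Cnmd and Sox9, lay within their spread.

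**Figure D1:**
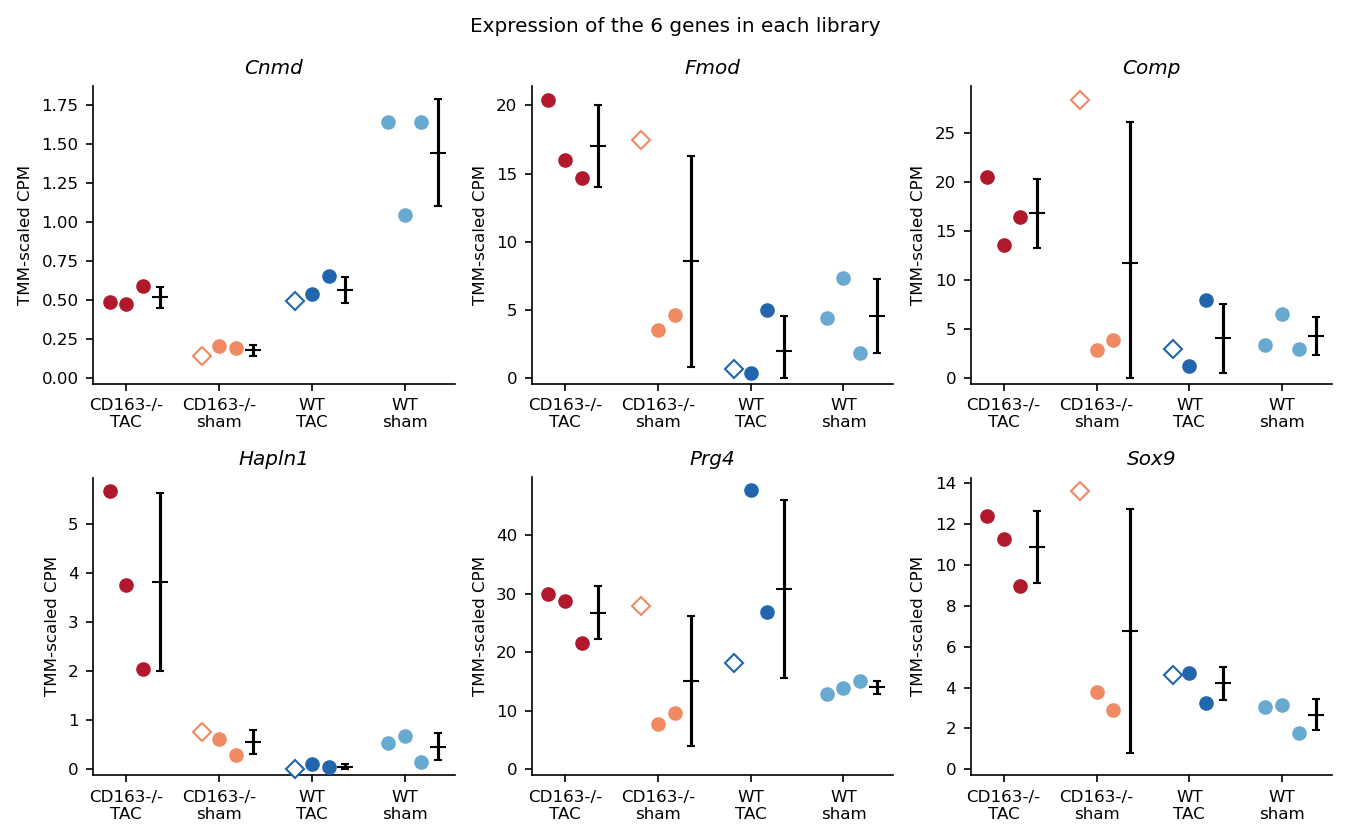
TMM-scaled CPM of each gene (vertical axis) in each of the 12 libraries (points), by group; open diamonds are CD163-/- sham replicate 1 and WT TAC replicate 1, and black bars are the group mean ± SD, drawn no lower than 0. CD163-/- sham replicate 1 lies with or above the CD163-/- TAC hearts for Fmod, Comp and Sox9 and within their range for Prg4, but with the other CD163-/- sham hearts for Cnmd and Hapln1.

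Hapln1, the link protein gene, was highest in CD163-/- hearts after TAC and lowest in WT hearts after TAC. Its level was 5.65, 3.76 and 2.03 CPM in CD163-/- TAC hearts, 0.751, 0.616 and 0.281 CPM in CD163-/- sham hearts, 0, 0.108 and 0.0544 CPM in WT TAC hearts, and 0.529, 0.681 and 0.149 CPM in WT sham hearts. All CD163-/- TAC libraries were above the other 9, WT TAC libraries were below all others, and the sham groups overlapped. In WT TAC replicate 1, a count of 0 allows a level of up to 0.147 CPM (3 counts, counting error only). These levels rest on 161 counts over the CD163-/- TAC group, 32 over the CD163-/- sham group, 3 over the WT TAC group and 28 over the WT sham group. After TAC, Hapln1 was higher in CD163-/- than in WT hearts by 6.01 ± 1.06 on the log2 scale (SE; adjusted p = 0.00836 by edgeR's quasi-likelihood test with Benjamini-Hochberg adjustment, the test behind every adjusted p below). With 3 counts in the WT TAC group that fold depends on the prior count, and the ratio of scaled counts was 72.3 (95% interval 24.3 to 354, counting error only). After sham surgery the difference was 0.24 ± 0.63 (adjusted p = 0.856). Averaged over surgeries, Hapln1 was 3.12 ± 0.62 higher in CD163-/- hearts on the log2 scale (adjusted p = 0.0113), and both calls held without each of the 12 libraries in turn, with adjusted p up to 0.0427 after TAC and 0.0424 averaged.

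Within each genotype, TAC and sham hearts did not overlap for Hapln1. Every CD163-/- TAC library was above every CD163-/- sham library, by 2.81 ± 0.56 on the log2 scale (adjusted p = 0.103), in a comparison where the groups of 22.4% of all genes did not overlap, 11.6% with TAC higher. Conversely, every WT TAC library was below every WT sham library, with a difference of -2.96 ± 1.10 (adjusted p = 0.190), where the groups of 27.1% of all genes did not overlap, 13.7% with TAC lower. The 3 counts over WT TAC hearts set against the 28 over WT sham hearts give a TAC-to-sham ratio of 0.114 (95% interval 0.0222 to 0.369, counting error only). The difference between the genotypes' TAC effects, the interaction, was 5.77 on the log2 scale with adjusted p = 0.132, in a fit where 0% of all genes passed. The interaction was, without CD163-/- sham replicate 1, 6.01 ± 1.31 (adjusted p = 0.00721, with 12.1% of all genes passing, 4.66% with a higher effect in CD163-/- hearts), and without that library and WT TAC replicate 1 it was 5.44 ± 1.31 (adjusted p = 0.00162, with 36.1% of all genes passing, 15.9% with a higher effect). CD163-/- sham replicate 1 held 11 Hapln1 counts, or 0.751 CPM, next to 0.616 CPM in replicate 2, although it stood with the CD163-/- TAC hearts on the first principal component.

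Cnmd, the chondromodulin gene, was lowest in CD163-/- sham hearts and highest in WT sham hearts. It was at 0.483, 0.469 and 0.590 CPM in CD163-/- TAC hearts, 0.136, 0.205 and 0.187 CPM in CD163-/- sham hearts, 0.492, 0.538 and 0.653 CPM in WT TAC hearts, and 1.64, 1.04 and 1.64 CPM in WT sham hearts. The TAC groups overlapped each other, CD163-/- sham lay below every other library, and WT sham lay above every other library. Behind these values stand 6 to 9, 2 to 5, 10 to 12 and 23 to 33 counts per library in the CD163-/- TAC, CD163-/- sham, WT TAC and WT sham groups. In bulk tissue, fewer cells that express such a gene and less RNA per cell cannot be told apart.

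The genotype difference of Cnmd was -0.12 ± 0.36 on the log2 scale after TAC and -2.95 ± 0.38 after sham surgery (SE, described only, because the gene was picked on it). Groups that did not overlap after sham surgery were seen in 22.5% of all genes, 10.4% with CD163-/- lower. By surgery, Cnmd was 1.48 ± 0.42 higher after TAC in CD163-/- hearts and differed by -1.35 ± 0.32 in WT hearts, and these opposite effects left an average TAC effect of 0.06 ± 0.26 (adjusted p = 0.866, tested, since it is independent of the genotype differences). Without CD163-/- sham replicate 1 and WT TAC replicate 1 the corresponding values were -0.20 ± 0.43 after TAC, -2.81 ± 0.47 after sham, 1.36 ± 0.52 for TAC in CD163-/- hearts and -1.25 ± 0.37 for TAC in WT hearts. Hapln1 and Cnmd thus shared the within-genotype order, with all CD163-/- TAC libraries above all CD163-/- sham libraries and all WT TAC libraries below all WT sham libraries. Of the 15804 genes tested, 95 (0.601%) showed that order. Among the related genes described below, Epyc, Wif1 and Bmp2, named for it after their values were seen, showed it too, with CD163-/- TAC at 1.49 to 2.69, 6.88 to 10.9 and 2.97 to 5.65 CPM and WT TAC at 0 to 0.0544, 0.393 to 1.72 and 0.968 to 1.13 CPM. The genotypes did not overlap for Hapln1 after TAC, with CD163-/- higher, and for Cnmd after sham surgery, with CD163-/- lower.

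Fmod, the fibromodulin gene, was high in all CD163-/- TAC hearts. It was at 20.4, 16.0 and 14.7 CPM in CD163-/- TAC hearts, 17.5, 3.53 and 4.64 CPM in CD163-/- sham hearts, 0.639, 0.323 and 4.95 CPM in WT TAC hearts, and 4.39, 7.31 and 1.84 CPM in WT sham hearts. The CD163-/- TAC hearts did not overlap the WT TAC hearts, whereas CD163-/- sham replicate 1 lay within the CD163-/- TAC range and WT TAC replicate 5 lay near the sham hearts. The genotype difference was 3.12 ± 0.83 on the log2 scale after TAC and 0.89 ± 0.79 after sham surgery (SE, described only). Without WT TAC replicate 5 the difference after TAC was 5.11, and the TAC effect in WT hearts was -3.21 in place of -1.21 ± 0.85. Without CD163-/- sham replicate 1 the difference after sham surgery was -0.15 ± 0.74, and the TAC effect in CD163-/- hearts was 2.05 ± 0.72 in place of 1.02 ± 0.77. Averaged over genotypes, the TAC effect was -0.10 on the log2 scale (adjusted p = 0.914).

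Comp, the collagen-binding thrombospondin gene, ran closely with Fmod over the libraries. It was at 20.5, 13.5 and 16.4 CPM in CD163-/- TAC hearts, 28.4, 2.79 and 3.89 CPM in CD163-/- sham hearts, 2.95, 1.18 and 7.90 CPM in WT TAC hearts, and 3.34, 6.49 and 2.88 CPM in WT sham hearts. The highest of all 12 values was CD163-/- sham replicate 1, and all CD163-/- TAC hearts were above all WT TAC hearts. After TAC the genotype difference was 2.07 ± 0.81 on the log2 scale (adjusted p = 0.0845), and after sham surgery it was 1.43 ± 0.80 (adjusted p = 0.432). Averaged over surgeries, Comp was 1.75 ± 0.57 higher in CD163-/- hearts (adjusted p = 0.0426). That averaged call held when CD163-/- sham replicate 2, CD163-/- sham replicate 3 or WT TAC replicate 5 was left out and was lost without any single other library, with adjusted p up to 0.117. Leaving out CD163-/- sham replicate 1 gave an averaged difference of 0.86 ± 0.39 (adjusted p = 0.117), while the difference after TAC was 2.07 ± 0.50 (adjusted p = 0.00815).

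Sox9, the cartilage transcription factor, had 2.57 times the scaled counts in CD163-/- as in WT hearts after TAC (95% interval 2.19 to 3.01, counting error only). It was at 12.4, 11.3 and 8.98 CPM in CD163-/- TAC hearts, 13.6, 3.78 and 2.9 CPM in CD163-/- sham hearts, 4.62, 4.73 and 3.27 CPM in WT TAC hearts, and 3.07, 3.13 and 1.79 CPM in WT sham hearts. All CD163-/- TAC hearts were above all WT hearts, and 2 of the 3 CD163-/- sham hearts lay among the WT hearts. The difference after TAC was 1.37 ± 0.48 on the log2 scale (adjusted p = 0.0599), and after sham surgery it was 1.32 ± 0.49 (adjusted p = 0.316). Averaged over surgeries, Sox9 was 1.34 ± 0.34 higher in CD163-/- hearts (adjusted p = 0.0231). The averaged call was lost, with adjusted p up to 0.0566, when 1 of 6 libraries was left out: CD163-/- TAC replicates 1 and 3, WT TAC replicates 3 and 5, and the first and second WT sham replicates. The difference after TAC was called without CD163-/- sham replicate 1 (1.37 ± 0.23, adjusted p = 0.00102), replicate 2 (adjusted p = 0.0466) or replicate 3 (adjusted p = 0.0419), and with CD163-/- sham replicate 1 and WT TAC replicate 1 both left out (1.45 ± 0.25, adjusted p = 0.000260).

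Prg4, the lubricin gene, had its highest values in TAC hearts of both genotypes. It was at 30.1, 28.7 and 21.6 CPM in CD163-/- TAC hearts, 27.9, 7.68 and 9.60 CPM in CD163-/- sham hearts, 18.1, 47.7 and 26.8 CPM in WT TAC hearts, and 12.9, 13.9 and 15.2 CPM in WT sham hearts. The TAC groups overlapped each other, all WT TAC hearts were above all WT sham hearts, and CD163-/- sham replicate 1 was the only sham heart within the TAC range. Averaged over genotypes, Prg4 was 0.99 ± 0.31 higher after TAC on the log2 scale (adjusted p = 0.0648). With CD163-/- sham replicate 1 left out it rose after TAC by 1.38 ± 0.21 (adjusted p = 0.000448), and with WT TAC replicate 1 also left out by 1.53 ± 0.16 (adjusted p = 2.95e-05). The genotype difference of Prg4 was -0.21 ± 0.44 after TAC (adjusted p = 0.740) and 0.09 ± 0.44 after sham surgery (adjusted p = 0.925).

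**Figure D2:**
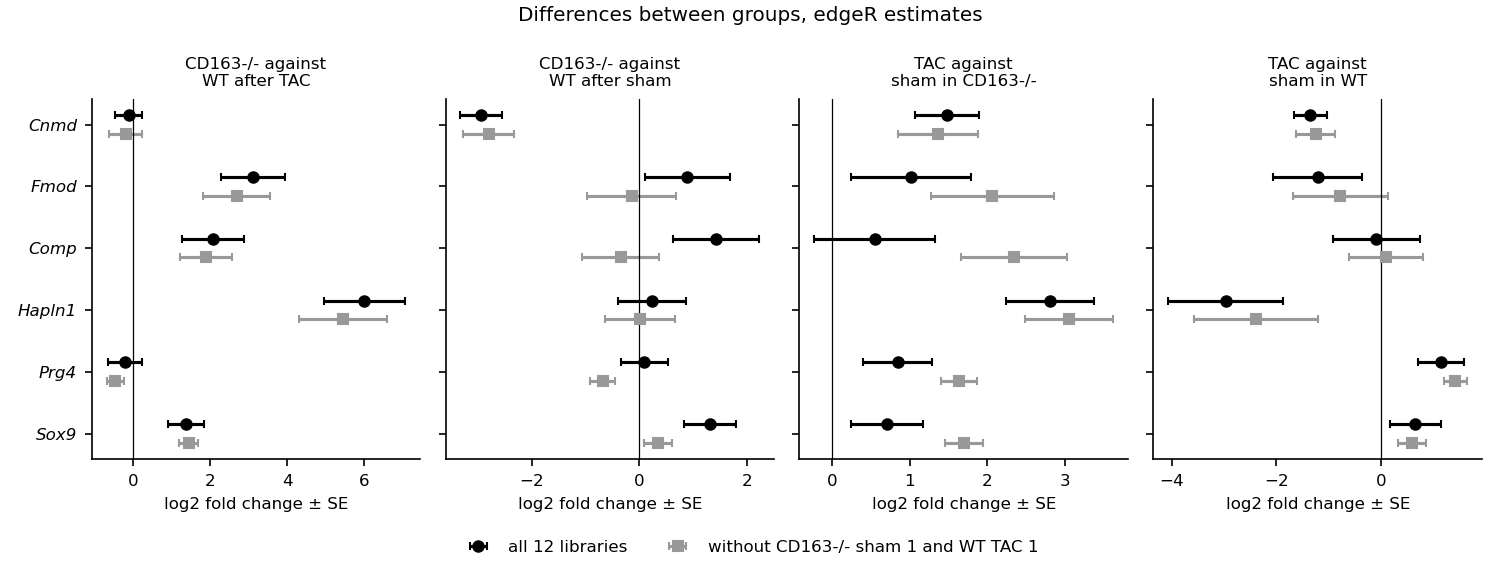
Log2 fold changes with SE (horizontal axis) of the 6 genes in the 4 comparisons between 2 groups, with all 12 libraries (black circles) and without CD163-/- sham replicate 1 and WT TAC replicate 1 (grey squares). Hapln1 has the largest genotype difference after TAC in both sets (6.01 and 5.45), and Cnmd the lowest after sham surgery (-2.95 and -2.81); Cnmd and Fmod are described only.

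Counted over the genes, 1 of the 4 tested members, Hapln1, passed the test between CD163-/- and WT hearts after TAC, where 20.4% of all genes passed, 8.63% higher in CD163-/- hearts. Averaged over surgeries, 3 of the 4 passed, each higher in CD163-/- hearts (Hapln1, Sox9 and Comp), where 28.6% of all genes passed, 13.9% higher. After sham surgery 0 of the 4 passed by edgeR, with 1 (Sox9) at an unadjusted p under 0.05 and 0 by DESeq2, and 0.00633% of all genes passed. For TAC against sham, 0 of 4 passed in CD163-/- hearts (1, Hapln1, at an unadjusted p under 0.05, 1 by DESeq2, and 0% of all genes) and 0 of 4 in WT hearts (2 at an unadjusted p under 0.05, 0 by DESeq2, and 0.0316% of all genes). Averaged over genotypes 0 of 6 passed for TAC against sham (1, Prg4, at an unadjusted p under 0.05, 1 by DESeq2, and 2.43% of all genes). The interaction had 0 of 4, with 1 (Hapln1) at an unadjusted p under 0.05, 1 by DESeq2, and 0% of all genes. The shares of all genes given here are by edgeR, and the share called by DESeq2 was not counted. By separation of the groups, 4 of the 6 genes, Fmod, Comp, Hapln1 and Sox9, had all CD163-/- TAC values above all WT TAC values, where 46.9% of all genes had groups that did not overlap, 22.7% with CD163-/- higher. Fmod had been picked for this kind of difference. In WT hearts Prg4 and Sox9 had all TAC values above all sham values, as 13.4% of all genes did, and Cnmd and Hapln1 had them below.

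CD163-/- sham replicate 1 decided several of these counts. It was singled out because its expression stood with the CD163-/- TAC hearts. Adjusted p-values without it do not account for that choice. Without this library, all 4 tested members were higher after TAC in CD163-/- hearts, in a fit where 47.6% of all genes passed, 22.4% higher. There Sox9 rose after TAC by 1.69 ± 0.26 on the log2 scale (adjusted p = 0.000559), Prg4 by 1.63 ± 0.31 (adjusted p = 0.00194), Hapln1 by 3.04 ± 0.60 (adjusted p = 0.00171) and Comp by 2.33 ± 0.57 (adjusted p = 0.00819). All 6 genes then had every CD163-/- TAC value above both remaining CD163-/- sham values, as 35.5% of all genes did, and 72.4% in either direction. In WT hearts 1 of 4 passed, Prg4, which was 1.14 ± 0.27 higher after TAC (adjusted p = 0.0348), with 6.53% of all genes passing, 3.4% higher. Averaged over genotypes 3 of 6 passed (Prg4, Sox9 and Comp), each higher after TAC, with 48.9% of all genes passing, 23.6% higher. Between the genotypes, 3 of 4 passed after TAC (Hapln1, Sox9 and Comp, with 40.7% of all genes passing, 18.5% higher). After sham surgery 0 of 4 passed by edgeR, with 0 at an unadjusted p under 0.05 and 0.241% of all genes passing. Averaged over surgeries 2 of 4 passed, Hapln1 and Sox9, with 25.8% of all genes passing, 10.9% higher. 

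With WT TAC replicate 1 also left out, 4 of 4 tested members passed for TAC in CD163-/- hearts, each higher (55.5% of all genes passing, 26.8% higher), and 1 of 4, Prg4, in WT hearts, at 1.42 ± 0.22 (adjusted p = 0.00576, with 6.18% passing, 3.39% higher). Averaged over genotypes 2 of 6 passed, Prg4 and Sox9, each higher (48.1% of all genes passing, 22.7% higher). Between the genotypes 2 of 4 passed after TAC, Hapln1 and Sox9, each higher in CD163-/- hearts (53.8% of all genes passing, 26.1% higher). Comp, at 1.90 ± 0.67, had adjusted p = 0.0538 there. After sham surgery 0 of 4 passed by edgeR, with 1 (Prg4, -0.68 ± 0.24, adjusted p = 0.197) at an unadjusted p under 0.05 and 1.84% of all genes passing. Averaged over surgeries Hapln1 and Sox9 were higher and Prg4 lower in CD163-/- hearts, where 44.5% of all genes passed, 21% higher and 23.5% lower. Prg4 differed there by -0.58 ± 0.16 (adjusted p = 0.0133). Sox9 joined Hapln1 with an interaction that passed, at 1.11 ± 0.36 (adjusted p = 0.0285). For the interaction 36.1% of all genes passed in this fit, 15.9% with a higher effect in CD163-/- hearts.

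Among themselves the 6 genes formed no single group over the 12 libraries. Pearson's r of log2 CPM was 0.91 between Fmod and Comp, and 0.90 between their deviations from the group means. It was 0.82 between Fmod and Hapln1 and 0.38 within groups, and 0.76 between Comp and Sox9 and 0.61 within groups. Prg4 had r of 0.01 with Fmod and 0.57 with Sox9. Cnmd had r between -0.49 (Sox9) and 0.00 (Prg4) with the other 5. These are descriptions over libraries that fall into clusters.

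The cartilage label was checked against genes that define cartilage. Of 15 cartilage matrix genes, 5 passed the filter on low counts. Col2a1, the main collagen of cartilage, had 21 counts over all 12 libraries and Acan, which encodes aggrecan, had 53. Col9a1 had 12, Col10a1 had 7, Matn3 had 2, Matn1 had 1 and Snorc had 0. These 7 genes reached 0.704 CPM at most, in a range that also holds most values of Cnmd. Other genes of the list were detected: Col9a2 and Col9a3, chains of a minor cartilage collagen, reached 1.65 and 1.84 CPM, and Col11a2 and Cytl1 were higher still, with Cytl1 at 21.8 to 30.6 CPM in CD163-/- TAC hearts. The label cartilage-like is kept here only for where the 6 genes are best known. All 10 valve-associated genes passed the filter, with summed levels of 253 to 311 CPM in CD163-/- TAC hearts, 217 to 402 in CD163-/- sham hearts, 182 to 450 in WT TAC hearts and 157 to 231 in WT sham hearts.

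Related matrix genes outside the 6 were read from 9 lists (cartilage matrix, chondrogenic regulators, valve, tendon, small leucine-rich proteoglycans, hyaluronan matrix, matrix turnover, thrombospondins and angiogenesis inhibitors). Between CD163-/- and WT hearts after TAC, 14 of their 63 distinct tested genes passed the test, each higher in CD163-/- hearts, where 20.4% of all genes passed, 8.63% higher. The median log2 difference was 0.37 over the 63, beside -0.02 over all genes. Averaged over surgeries 22 of the 63 passed, each higher, where 28.6% of all genes passed, 13.9% higher, with a median of 0.55 beside 0.00 over all genes. Without CD163-/- sham replicate 1 and WT TAC replicate 1, 19 of 64 were higher and 3 lower after TAC (median 0.34), where 53.8% of all genes passed, 26.1% higher. Averaged over surgeries 27 were higher and 2 lower (median 0.40), where 44.5% of all genes passed, 21% higher.

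For TAC against sham in CD163-/- hearts, 0 of the 63 passed by edgeR with all 12 libraries (15 at an unadjusted p under 0.05). When CD163-/- sham replicate 1 was left out, 15 of 66 rose and 6 fell, in a fit where 22.4% of all genes rose and 47.6% passed. Those that rose included Cytl1 (1.89 ± 0.34, adjusted p = 0.00127), Col11a2 (1.61 ± 0.30, adjusted p = 0.00141), Bmp4, a bone morphogenetic protein gene (1.31 ± 0.30, adjusted p = 0.00453), and Thbs4, a thrombospondin of tendon (2.32 ± 0.51, adjusted p = 0.00501). Those that fell included Tbx20, a cardiac T-box factor (-1.46 ± 0.30, adjusted p = 0.00200), and the protease genes Adamts4 (-2.37 ± 0.52, adjusted p = 0.00242) and Adamts12 (-1.36 ± 0.23, adjusted p = 0.000705).

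By list, after TAC, 2 of 5 tested cartilage matrix genes were higher in CD163-/- hearts, with a median of 1.40. They were Col11a2, a fibrillar collagen chain, at 1.63 ± 0.38 on the log2 scale (adjusted p = 0.0231), and Cytl1, a secreted cytokine-like protein of cartilage, at 1.40 ± 0.44 (adjusted p = 0.0479). Col11a2 was at 19.0, 16.8 and 12.4 CPM in CD163-/- TAC hearts, 12.7, 5.22 and 5.25 CPM in CD163-/- sham hearts, 7.32, 5.27 and 2.89 CPM in WT TAC hearts, and 3.97, 3.90 and 4.87 CPM in WT sham hearts. As for Sox9, all CD163-/- TAC hearts were above all WT hearts, and CD163-/- sham replicate 1 stood beside the CD163-/- TAC hearts. Unlike Sox9, Col11a2 overlapped between WT TAC and WT sham hearts. Of 9 tested chondrogenic regulators 1 was higher (median 0.37), Bmp2, a bone morphogenetic protein, at 1.93 ± 0.29 (adjusted p = 0.0116). Of the 10 valve-associated genes 2 were higher (median 0.30): Wif1, a secreted WNT inhibitor, at 2.91 ± 0.43 (adjusted p = 0.0116), and the homeobox gene Msx1 at 0.96 ± 0.25 (adjusted p = 0.0271). Versican (Vcan), the partner of the link protein in valves, differed by 0.10 ± 0.23 (adjusted p = 0.767).

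Of 7 tested tendon genes 2 were higher after TAC (median 0.54): Tnmd and Cilp2. Tnmd encodes tenomodulin, the closest relative of chondromodulin. It was at 2.48, 0.939 and 1.51 CPM in CD163-/- TAC hearts, 1.23, 0.246 and 0.187 CPM in CD163-/- sham hearts, 0, 0 and 0.163 CPM in WT TAC hearts, and 0.0529, 0.227 and 0.0497 CPM in WT sham hearts. With 71 counts over CD163-/- TAC hearts and 3 over WT TAC hearts the ratio of scaled counts was 31.9 (95% interval 10.5 to 158, counting error only; adjusted p = 0.0198). Tnmd therefore stood high in the CD163-/- TAC hearts while its relative Cnmd had overlapping values in the TAC groups. Of 9 small leucine-rich proteoglycans 2 were higher (median 0.45): Dcn, which encodes decorin, at 0.90 ± 0.23 on the log2 scale (adjusted p = 0.0278), and Epyc, which encodes epiphycan. Epyc had 81 counts over CD163-/- TAC hearts, 37 over CD163-/- sham hearts, 1 over WT TAC hearts and 27 over WT sham hearts, the same low WT TAC group as Hapln1. Its ratio of scaled counts after TAC was 109 (95% interval 19.0 to 4363, counting error only; adjusted p = 0.00836).

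Of 9 tested hyaluronan genes 1 was higher after TAC (median 0.14), Itih5, which encodes a hyaluronan-binding inhibitor heavy chain, at 1.19 ± 0.30 (adjusted p = 0.0271). Of 9 matrix turnover genes 1 was higher (median -0.00), the protease gene Adamts9 at 0.69 ± 0.22 (adjusted p = 0.0483). Of 4 thrombospondins, the family to which Comp belongs, 2 were higher (median 0.73): Thbs3 at 0.97 ± 0.22 (adjusted p = 0.0213) and Thbs1 at 1.20 ± 0.36 (adjusted p = 0.0400). Of 8 angiogenesis inhibitors other than Cnmd 3 were higher (median 0.71): Tnmd, Thbs1 and Vash1, which encodes vasohibin, at 0.84 ± 0.25 (adjusted p = 0.0382). For TAC against sham averaged over genotypes, Vash1 was the only gene of the 9 lists called with all 12 libraries. It differed by -1.004 ± 0.17 (adjusted p = 0.0412), and 2.43% of all genes passed. Without CD163-/- sham replicate 1, 20 of 66 list genes were higher and 6 lower, where 48.9% of all genes passed, 23.6% higher. Without that library and WT TAC replicate 1, 20 of 64 were higher and 6 lower, where 48.1% passed, 22.7% higher.

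**Figure D3:**
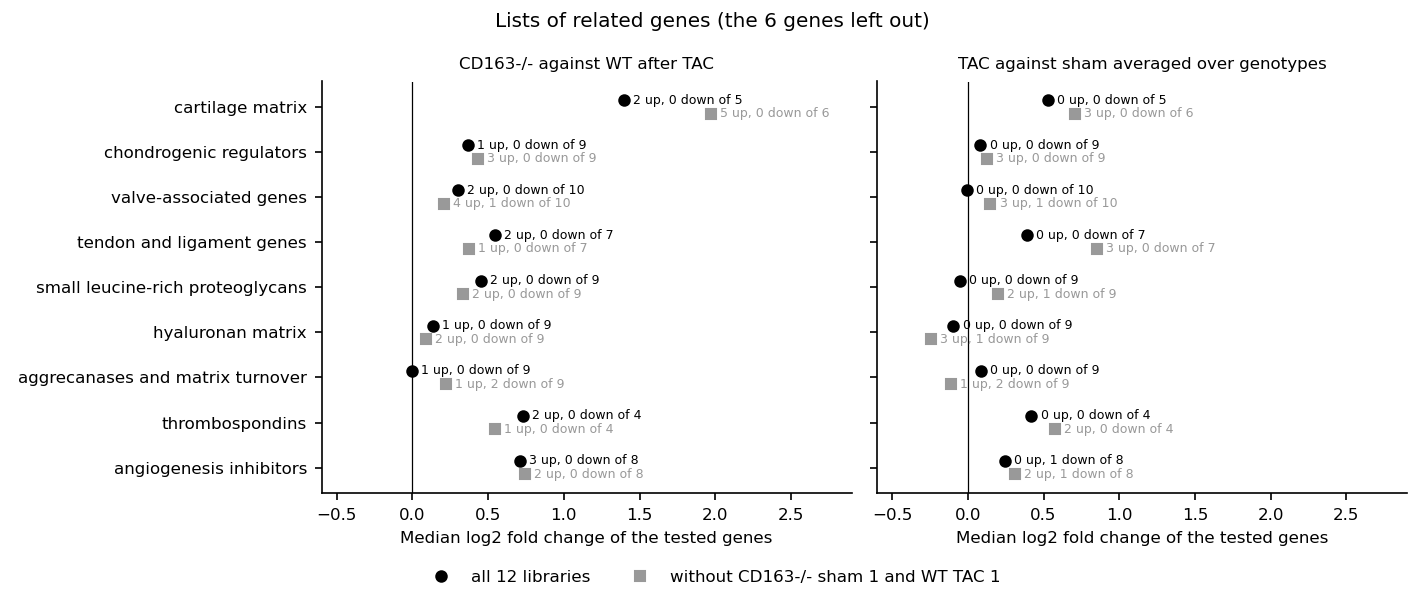
Median log2 fold change (horizontal axis) of the tested genes of each of the 9 lists, the 6 genes left out, for CD163-/- against WT after TAC and for TAC against sham averaged over genotypes, with all 12 libraries (black) and without CD163-/- sham replicate 1 and WT TAC replicate 1 (grey); text gives the genes that passed the test. The cartilage matrix list has the highest median after TAC in both sets, 1.40 and 1.97.

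Markers of other tissue were set beside the 6 genes, library by library. The summed level of 5 atrial genes (Myl7, Myl4, Sln, Bmp10 and Nppa) was 643 to 2354 CPM in CD163-/- TAC hearts, 263 to 2987 in CD163-/- sham hearts with replicate 1 at 2987, 251 to 545 in WT TAC hearts, and 81.3 to 1731 in WT sham hearts. After TAC 4 of these 5 were higher in CD163-/- hearts (median log2 difference 7.76), where 20.4% of all genes passed, 8.63% higher. The sum of the other 4 without Nppa, a natriuretic peptide gene that ventricles also express under load, was 323 to 1514 CPM in CD163-/- TAC hearts, 154 to 1832 in CD163-/- sham hearts, 2.67 to 9.51 in WT TAC hearts and 21.1 to 901 in WT sham hearts. The library with the highest atrial sum in its group was also the highest for Fmod and Comp in 4 of 4 groups, for Hapln1 and Sox9 in 3, for Prg4 in 2 and for Cnmd in 1. In WT TAC hearts that sum was mostly Nppa, and by Myl7 alone the match held for Hapln1 and Sox9 in 4 of 4 groups, for Fmod, Comp and Prg4 in 3 and for Cnmd in 0. With 3 libraries per group such matches also arise by chance, and their share over all genes was not counted. Myl7, an atrial light chain, was at 646, 136 and 400 CPM in the CD163-/- TAC hearts and at 0.442, 3.06 and 0.381 CPM in the WT TAC hearts. Ventricular cardiomyocyte genes summed to 29094 to 31689 CPM in CD163-/- TAC hearts, 22882 to 43141 in CD163-/- sham hearts with replicate 1 at 22882, 45002 to 46212 in WT TAC hearts and 47784 to 49841 in WT sham hearts, and 2 of 5 were lower in CD163-/- hearts after TAC (median -0.55). The part of atrial or ventricular tissue in the differences of the 6 genes was not tested.

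The other marker lists differed in their patterns. Their calls after TAC stand beside the 20.4% of all genes that passed there, 8.63% higher in CD163-/- hearts. 7 mesothelial and epicardial genes summed to 27.6 to 41.1 CPM in CD163-/- TAC hearts, 7.44 to 75.8 in CD163-/- sham hearts with replicate 1 at 75.8, 4.95 to 7.67 in WT TAC hearts and 6.17 to 24.1 in WT sham hearts, and 1 of 7 was higher in CD163-/- hearts after TAC (median 3.26). 5 adipocyte genes summed to 7.08 to 8.69 CPM in CD163-/- TAC hearts, 2.01 to 5.53 in CD163-/- sham hearts, 0.147 to 0.591 in WT TAC hearts and 0.597 to 4.72 in WT sham hearts, with all 3 tested higher after TAC (median 4.59). 8 fibroblast genes summed to 2495 to 2976, 2156 to 2748, 1449 to 2168 and 1768 to 2072 CPM in the CD163-/- TAC, CD163-/- sham, WT TAC and WT sham hearts, and 2 of the 8 were higher in CD163-/- hearts after TAC (median 0.03). Endocardial and endothelial genes had 1 of 7 higher (median 0.27) and smooth muscle genes 0 of 5 by edgeR, with 0 at an unadjusted p under 0.05 (median 0.23). The endocardial and endothelial sum was 645 to 705 CPM in CD163-/- TAC, 821 to 898 in CD163-/- sham, 539 to 672 in WT TAC and 711 to 859 in WT sham hearts. The smooth muscle sum was 164 to 198, 143 to 302 with replicate 1 at 143, 112 to 249 and 88.7 to 161 CPM in the same groups. Airway genes stayed at 0.345 CPM in sum at most. Thymus genes summed to 4.16 CPM in CD163-/- sham replicate 1 and 2.49 CPM in CD163-/- TAC replicate 5. In every other library the thymus sum was 0.344 CPM or less. In CD163-/- sham replicate 1 the atrial, mesothelial and thymus sums were the highest of all 12 libraries. Its adipocyte sum, at 5.53 CPM, and its Hapln1 level, at 0.751 CPM, were below the CD163-/- TAC hearts. The adipocyte sum had the group order of Hapln1, with all CD163-/- TAC hearts above all CD163-/- sham hearts and all WT TAC hearts below all WT sham hearts. In WT hearts this sum only just separated the groups, at 0.591 CPM in the highest TAC heart and 0.597 CPM in the lowest sham heart. The library highest in that sum was also the highest for Hapln1 and Sox9 in 4 of 4 groups, for Fmod, Comp and Prg4 in 3 and for Cnmd in 0. The share of all genes with such matches was not counted here either. The part of these tissues in the differences of the 6 genes was not tested.

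**Figure D4:**
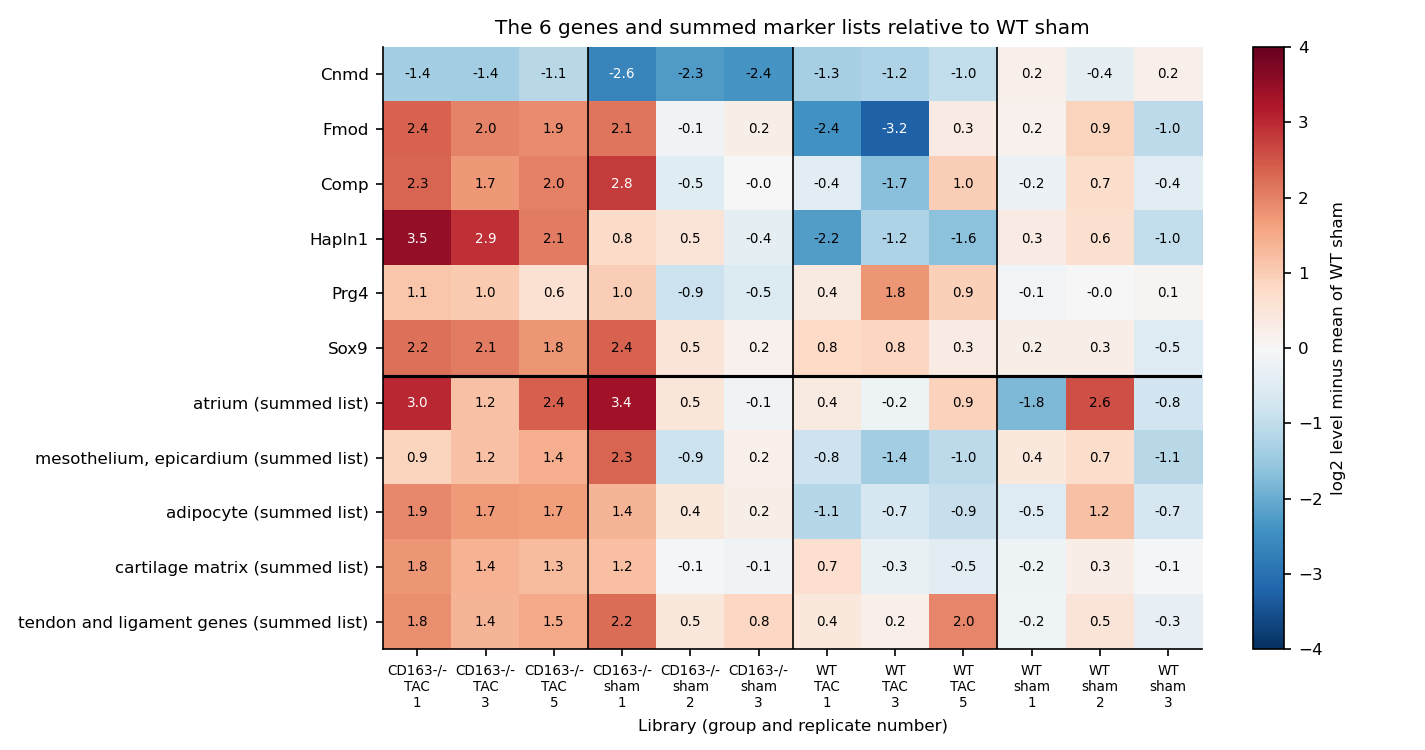
Log2 level of the 6 genes and of 5 summed lists (rows) in each library (columns), minus the mean of the WT sham hearts; black lines separate the groups. In CD163-/- sham replicate 1 Fmod (2.1), Comp (2.8), Sox9 (2.4) and the atrial sum (3.4) are high, Hapln1 is at 0.8 and Cnmd at -2.6.

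The genes whose log2 CPM ran most closely with each of the 6 over the 12 libraries were taken by Pearson's r, which is a description because the libraries fall into clusters and share their depth. Cnmd ran with Slc6a17 (0.88), Scgb1c1 (0.85) and Penk (0.85) and opposite to Serpinh1 (-0.91), a collagen chaperone gene, and Fbn1 (-0.87), which encodes fibrillin. Fmod ran with Chrdl1 (0.96), Bicc1 (0.95) and Ptn (0.95), and Comp with Col8a2 (0.97), Rnase4 (0.97) and Col12a1 (0.95), of which Col8a2 and Col12a1 encode collagen chains. Hapln1 ran with Pds5b (0.95), Chodl (0.95) and Ufl1 (0.94), Prg4 with Rpl3 (0.98), Nr1h3 (0.92) and Rps3a1 (0.92), and Sox9 with Riok1 (0.97), Tyro3 (0.96) and Dnm1 (0.96). The most opposed genes were Josd2 (-0.98) and Leng1 (-0.95) for Fmod, Narfl (-0.97) and Ciapin1 (-0.96) for Comp, Gtf2a2 (-0.94) and Banf1 (-0.93) for Hapln1, Atp1b2 (-0.93) and Apln (-0.93) for Prg4, and Sirt5 (-0.97) and Tcea3 (-0.97) for Sox9. No gene was among the 3 closest of more than 1 of the 6.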

How the data were processed

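Poly(A)-selected RNA of mouse hearts was sequenced as paired 150 bp reads, per the labels' protocols, and the authors deposited raw counts per Ensembl gene ID. HISAT2 is named in the submitters' processing notes; its version, the build, the annotation and the counter, each not given in the sources used here, were not assumed. Symbols were matched for 52081 of 55357 IDs. Counts were tested in R 4.3.3 with edgeR 4.0.16 (quasi-likelihood, robust, TMM scaling, filterByExpr by group, 1 coefficient per group over all 12 libraries, 8 residual degrees of freedom). Benjamini-Hochberg adjustment was over 15804 genes, with a threshold of 0.05. The fit was also run on simulated data that held no library standing apart from its group. That run does not bear on calls that hinge on such libraries. SEs are Wald errors from the fit. CPM are TMM-scaled, and log2 CPM use a prior count of 2. The 6 genes, the lists and the 2 libraries that stand apart were chosen with earlier results of these data known. Named genes are the 6, up to 4 of each list by smallest p, and for each gene the 3 most alike and 2 most opposed; Vcan was named after its values were seen. Fits with other scalings, filters, DESeq2 1.42.0, a replicate block and left-out libraries were run. No pair of libraries of a group agreed within sampling noise (lowest chi-square per degree of freedom 8.59), and each library was counted as 1 replicate. Gene lengths and positions come from GENCODE vM21.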

Additional observations from a re-analysis of the deposited data

Results flagged for a closer look

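For Cnmd and Hapln1 every CD163-/- TAC library lay above every CD163-/- sham library and every WT TAC library below every WT sham library. In the main edgeR fit over all 12 libraries, no test shows that the TAC effects differed between the genotypes. With no filter on low counts, edgeR over all 12 libraries called this difference for Hapln1 (adjusted p = 0.000221). For Cnmd the TAC effect in CD163-/- hearts minus that in WT hearts was 2.83 ± 0.52 on the log2 scale. This difference was not tested, because the gene was picked for its genotype differences. For Hapln1 it was 5.77, with adjusted p = 0.132 by edgeR over all 12 libraries, 0.00721 without CD163-/- sham replicate 1, and 0.00162 without that library and WT TAC replicate 1. Over the alternative settings the adjusted p ran from 0.000221 to 0.270, and with each library left out in turn from 0.00721 to 0.433, passing in 1 of 12. The WT TAC group of Hapln1 held 3 counts, so the size of that value depends on the prior count. The opposite order, with CD163-/- TAC below CD163-/- sham and WT TAC above WT sham, was seen in 78 genes (0.494%), close to the 95 genes (0.601%) with the order of Cnmd and Hapln1.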

How the results depend on the processing

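Of the log2 values under the alternatives tried, 757 were unchanged, 32 gained a call, 19 lost theirs, 5 untested values moved and 42 tested values changed sign. Unchanged tested values kept their direction and their side of the threshold. Untested values have no threshold, and counted as unchanged if they differed by less than the gene's pooled SD within groups. Of these, 2 values of Fmod after sham changed sign. The causes were not tested except where fewer genes or libraries entered. The counts of called genes below are of the 4 tested members, or of 6 for TAC against sham averaged over genotypes. DESeq2 called 1 (Hapln1) for TAC in CD163-/- hearts, 1 (Prg4) for TAC averaged over genotypes, 2 (Hapln1 and Sox9) between the genotypes after TAC and 1 (Hapln1) for the interaction. With no filter on low counts, where more genes enter the adjustment, 1 (Hapln1) was called for TAC in CD163-/- hearts, 1 (Hapln1) between the genotypes averaged over surgeries and 1 (Hapln1) for the interaction. With only the groups compared in the fit, 3 (Hapln1, Sox9 and Comp) were called after TAC. The share of all genes called was not counted for DESeq2, for the unfiltered fit or for the fits of the compared groups alone. These calls therefore have no background beside them. Without CD163-/- sham replicate 1 and WT TAC replicate 1, 1 was called for TAC in WT hearts, 4 for TAC in CD163-/- hearts, 2 for TAC averaged, 2 between the genotypes after TAC and 2 for the interaction. With each library left out in turn, the counts ran from 0 to 1 for TAC in WT hearts, 0 to 4 for TAC in CD163-/- hearts, 0 to 3 for TAC averaged, 1 to 3 after TAC, 1 to 3 averaged over surgeries and 0 to 1 for the interaction. The following log2 values changed sign. By library totals without TMM, Comp was at 0.029 for TAC in WT hearts and Sox9 at -0.23 for the interaction; that scaling moved the median gene by -0.33 for the interaction, -0.22 after TAC, -0.17 for TAC in CD163-/- hearts, 0.15 for TAC in WT hearts and 0.11 after sham. Replicate numbers did not pair the libraries throughout (2 of 14 same-number pairs of deviations correlated over 0.1, and 3 of 12 libraries correlated best with their own number). The 2 pairs were WT TAC replicate 1 with CD163-/- sham replicate 1 (0.62) and WT TAC replicate 3 with CD163-/- sham replicate 3 (0.33). What these pairs share was not tested. With the replicate numbers as a block, TAC averaged over genotypes gave -0.17 for Cnmd, -0.16 for Comp and 0.52 for Hapln1, and Prg4 was at -0.00989 after sham. Under the block Comp averaged over surgeries was at 1.66 (adjusted p = 0.0521). Without CD163-/- sham replicate 1 and WT TAC replicate 1, Comp was at 0.10 for TAC in WT hearts, Fmod at 0.64 and Hapln1 at 0.33 for TAC averaged, Comp at -0.34, Prg4 at -0.68 and Fmod (described only) at -0.14 after sham, and Prg4 at 0.21 for the interaction. With single libraries left out, the ranges that crossed 0 were -1.03 to 0.36 for Comp in WT TAC; -0.034 to 0.14 for Cnmd, -1.10 to 0.42 for Fmod, -0.24 to 1.12 for Comp and -0.51 to 0.22 for Hapln1 in TAC averaged. After sham they were -0.35 to 1.89 for Comp, -0.15 to 1.43 for Fmod, -0.17 to 0.67 for Hapln1 and -0.69 to 0.40 for Prg4. Prg4 ran from -0.46 to 0.25 after TAC, -0.45 to 0.17 averaged over surgeries and -0.59 to 0.49 for the interaction, and Sox9 from -0.31 to 1.04 for the interaction. Cnmd gave no value under a filter of a mean of 1 CPM. Counts of 2 to 33 per library for Cnmd and 0 to 82 for Hapln1 limit the precision of these 2 genes.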
